A study of Mus musculus with 13 samples.

Results

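The 10 genes described here are imprinted genes expressed in neurons: Snrpn, Snurf, Ndn, Magel2, Ube3a, Peg3, Meg3, Rian, Nnat and Impact. They were taken by gene symbol from the 22682 symbols that all 13 libraries list, and each of the 10 was found in every library. The set was chosen by symbol with its counts in purified and unpurified RNA already known, among them the low count of Snrpn after purification, so the ratios of purified to unpurified RNA are given as a description and without a test. The difference between genotypes was not used for the choice and was tested. The study profiled ribosome-bound RNA of the medial habenula, a small epithalamic nucleus, in wild-type mice and in mice lacking Gpr151, a receptor of habenular neurons whose ligand is unsettled.

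All 13 libraries came from adult mice (over 8 weeks of age) carrying the Chat-TRAP transgene of line DW167, in which, by its name, the choline acetyltransferase (Chat) gene's control regions drive a GFP-tagged ribosomal protein in cholinergic cells. The labels give neither sex nor drug treatment. The wild-type immunopurified (IP) group had 6 libraries of polysome-bound mRNA pulled down with anti-GFP beads from Chat-TRAP DW167 mice. The knockout IP group had 6 such libraries from Gpr151-KO::Chat-TRAP DW167 mice, so both genotypes carry the transgene. The input group had 1 library, total RNA of the unpurified wild-type homogenate. Each library pooled 4 mice, or 3 mice for libraries 852 and 855, so the unit of replication is the pool.

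In genomic imprinting, 1 of the parental alleles is silenced according to its parent of origin, through DNA methylation set in the germ line. The Snrpn to Ube3a domain is the region affected in Prader-Willi and Angelman syndromes: Snrpn, Snurf, Ndn and Magel2 are read from the paternal allele, while in neurons Ube3a is read from the maternal one, the paternal copy being silenced by a long antisense transcript, Snhg14. Meg3 and Rian are maternally expressed long noncoding RNAs of the Dlk1-Dio3 domain and are found largely in the nucleus. Peg3, Nnat and Impact are paternally expressed, and several of the 10 genes are known for effects on growth, feeding and maternal behaviour through the hypothalamus.

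Some stretches of DNA around the starts of neighbouring genes are shown as a description. They lie mostly before the starts, and no link between them and the assignment of reads was tested. Snrpn and Snurf are read from the same strand, and RefSeq gives them a common start, 1 of 4 starts listed for Snrpn. The window from 250 bases before to 50 bases after that start lies at chr7:60005150-60005449 on the minus strand (GRCm38.p6, RefSeq). Peg3 lies head to head with Usp29, and its window, chr7:6730370-6730669 on the minus strand, shares 263 bases with that of Usp29. CG dinucleotides, the sites of DNA methylation, are in capitals.
Snrpn and Snurf: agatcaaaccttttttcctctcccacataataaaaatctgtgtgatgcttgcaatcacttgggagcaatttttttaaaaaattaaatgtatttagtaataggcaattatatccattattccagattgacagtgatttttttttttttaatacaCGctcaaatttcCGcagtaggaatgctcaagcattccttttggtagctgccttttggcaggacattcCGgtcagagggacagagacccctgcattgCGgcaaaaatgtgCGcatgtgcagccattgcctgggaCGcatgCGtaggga
Peg3: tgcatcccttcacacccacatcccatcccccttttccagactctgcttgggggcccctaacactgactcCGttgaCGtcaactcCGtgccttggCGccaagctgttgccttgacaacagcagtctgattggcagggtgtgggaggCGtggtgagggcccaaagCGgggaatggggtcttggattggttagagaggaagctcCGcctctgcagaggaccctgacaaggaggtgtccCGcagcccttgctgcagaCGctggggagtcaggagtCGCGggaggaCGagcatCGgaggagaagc
The shared Snrpn and Snurf window holds 7 CG, and 52.1% of the 32851 RefSeq windows of the same length hold at least as many. The Peg3 window holds 13 CG, a number reached by 37.9% of windows. CG reads the same on both strands, and the counts describe these windows only, since methylation was not measured.

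Rian is the host transcript of small RNAs. On chromosome 12, 3 hairpins listed as rows of their own lie within it. Their mature sequences (RefSeq, GRCm38.p6) are shown because reads of the host could be counted to them. Capitals mark the seed, bases 2 to 8, which pairs with targets.
mmu-miR-341-5p: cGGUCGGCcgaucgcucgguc
mmu-miR-341-3p: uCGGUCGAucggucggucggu
mmu-miR-1188-5p: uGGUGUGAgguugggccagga
mmu-miR-1188-3p: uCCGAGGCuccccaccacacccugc
mmu-miR-370-5p: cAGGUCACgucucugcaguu
mmu-miR-370-3p: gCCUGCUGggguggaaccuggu
No seed is shared among the 6. The row of Mir1188 had 103 counts in the input and 0 to 34 in IP libraries, that of Mir341 had 45 and 0 to 21, and that of Mir370 had 4 and 0 to 3. The libraries were made from cDNA fragmented to 250 bp, so these rows count fragments over the hairpins and not mature miRNAs. Other rows examined with these neighbours also differed between libraries. DQ267101 had 1 count in the input, 345 to 537 in IP libraries 682, 683, 852 and 855, and 0 or 1 in the other IP libraries. AF357425 had 0 in the input and 0 to 166 in IP libraries. Gm24564 and Gm26945 were listed for the input alone, at 346 counts each. Where these rows lie against Rian was not measured.

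Counts assigned to genes ran from 28375912 to 64388596 per IP library and were 54701790 in the input. The libraries were counted on 3 different gene lists: 4 earlier IP libraries (682, 683, 852 and 855) list 32531 symbols, 8 later ones (1091 to 1094 and 1099 to 1102) list 24454, and the input lists 37328. The share of alignments that touched several genes, and was counted to none, was 3.98% for the input, 1.30% to 1.36% for earlier IP libraries and 0.581% to 0.714% for later ones. Values below are CPM, counts per 1000000 counts of the 22682 shared symbols, where 3 counts, the limit that a count of 0 allows, are 0.0502 to 0.121 CPM per IP library and 0.0680 CPM in the input, counting error only. All 12 markers of medial habenula neurons were higher in each wild-type IP library than in the input, with a median log2 ratio of 3.13. In turn, 8 of 8 oligodendrocyte and 6 of 8 astrocyte markers were lower. Among markers with at least 5 CPM, 4 of 6 microglia markers were lower. Of 3 such endothelial markers, 0 were lower and 1 was higher. Gpr151, the check of the labels, was at 382 to 589 CPM in wild-type and 121 to 212 CPM in knockout IP libraries (log2 fold change -1.63 ± 0.17 SE, edgeR quasi-likelihood test, adjusted p = 0.00592, 6 libraries a group). With the 8 later libraries alone it was no longer called (adjusted p = 0.424), nor without knockout library 683 (log2 fold change -1.54).

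**Figure D1:**
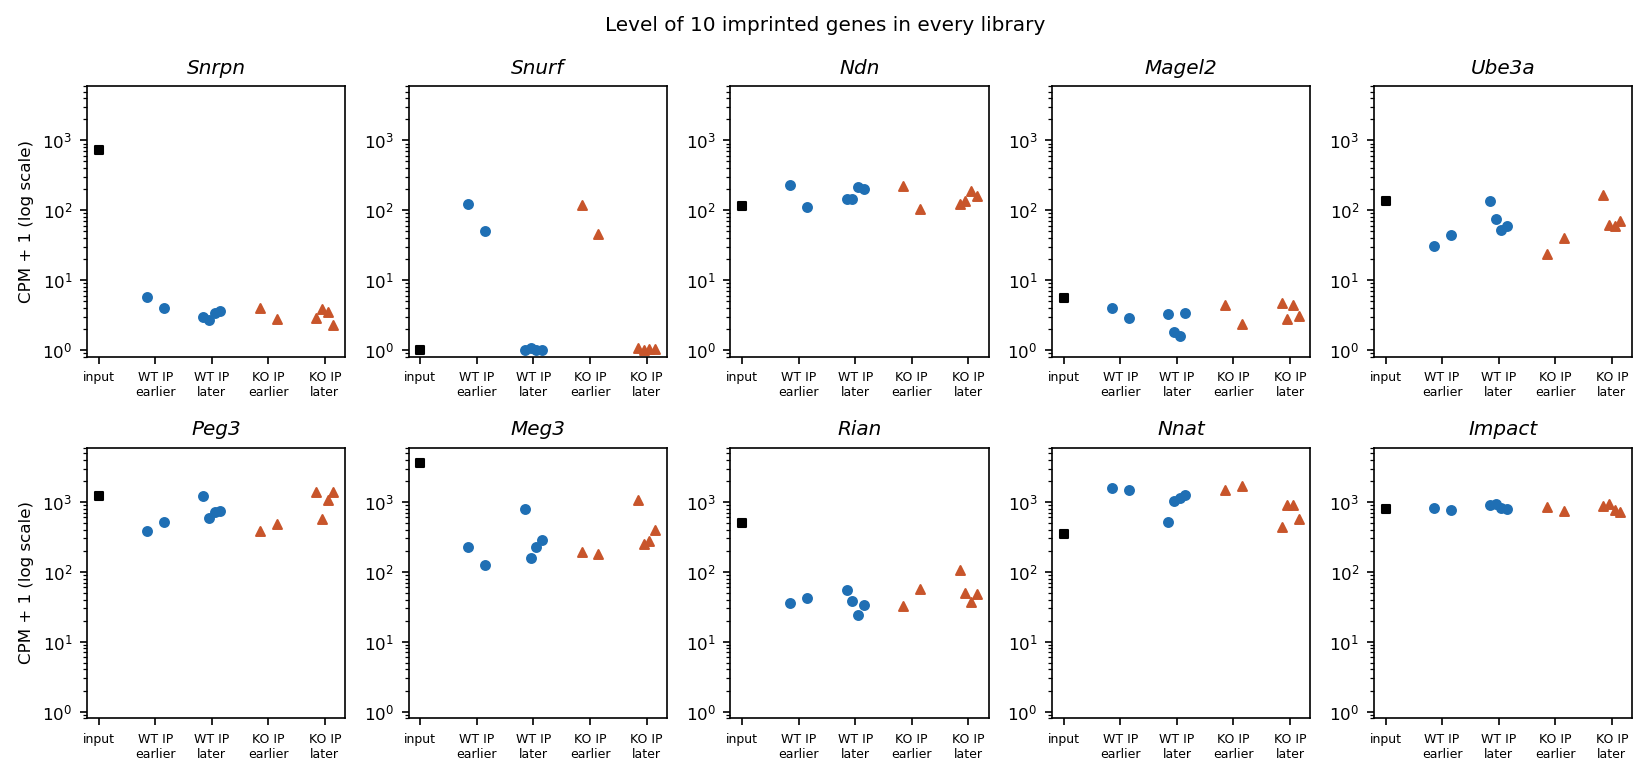
Level of each of the 10 genes in every library, as CPM + 1 on a log axis, with the input as a square, wild-type (WT) IP libraries as circles and knockout (KO) IP libraries as triangles, split into earlier and later libraries. Snrpn stands at 734 CPM in the input and at 1.30 to 4.65 CPM in all 12 IP libraries, while Snurf is above 44 CPM in the 4 earlier IP libraries and near 0 elsewhere.

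Snrpn, which encodes SmN, the neuronal form of a core protein of spliceosomal ribonucleoproteins, showed the widest gap of the 10 between input and IP. It had 734 CPM in the input. In the 6 wild-type IP libraries it had a lowest value of 1.71, a median of 2.50 and a highest of 4.65 CPM, and in the 6 knockout libraries 1.30, 2.15 and 2.97 CPM. These are 51 to 168 reads per IP library against 32383 in the input, and no IP library came near the input. The log2 ratio of IP over input, with 1 CPM added to both, had a median of -7.72 over the wild-type libraries (range -8.08 to -7.02), the lowest of the 11434 genes that had at least 5 CPM in the input or on average over the 6 libraries.

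Snurf, the upstream reading frame of the same bicistronic transcript, was counted in a different pattern. The input had 0 counts. The earlier IP libraries had 123 and 50.2 CPM in wild type and 118 and 44.9 CPM in knockout, from 1247 to 4680 reads. The later IP libraries had 0 to 3 reads each. Snurf therefore took 94.4% to 97.5% of the reads assigned to either gene where the earlier list was used and 0% to 3.41% where the later one was. The sum of both genes was 734 CPM in the input, 46.7 to 128 CPM in earlier and 1.32 to 2.83 CPM in later IP libraries, so even the sum did not overlap between earlier and later libraries.

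The gene models at this locus overlap. In GENCODE M21 (GRCm38), Snrpn (ENSMUSG00000102252.5) spans 59982495 to 60140219 on the minus strand of chromosome 7 and Snurf (ENSMUSG00000102627.1) spans 59995449 to 60005049. All 216 exon bases of Snurf lie in exons of Snrpn, of which they make up 10.0%. RefSeq draws Snurf longer, from 59982495 to 60005199, ending where Snrpn ends. The input list also holds Gm38393, which shares 27.3% of the exon bases of Snrpn and had 4563 counts, and neither IP list has that symbol. Scaled like CPM, reads that touched several genes came to 102677 for the input, 36079 to 43265 for earlier and 11996 to 13755 for later IP libraries. How much of the Snrpn gap comes from the gene lists was not tested, and the ratio is therefore no measure of how much Snrpn mRNA the ribosomes held. Other Sm and snRNP proteins, 10 genes with 5 CPM, had a median ratio of 0.05, and Snrpb, the widely expressed relative of Snrpn, had 26.5 CPM in the input and a median of 30.3 CPM in wild-type IP (log2 ratio 0.19). Snrpd3, another core protein, was the 1 of them that was lower in every wild-type IP library (-2.59).

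**Figure D2:**
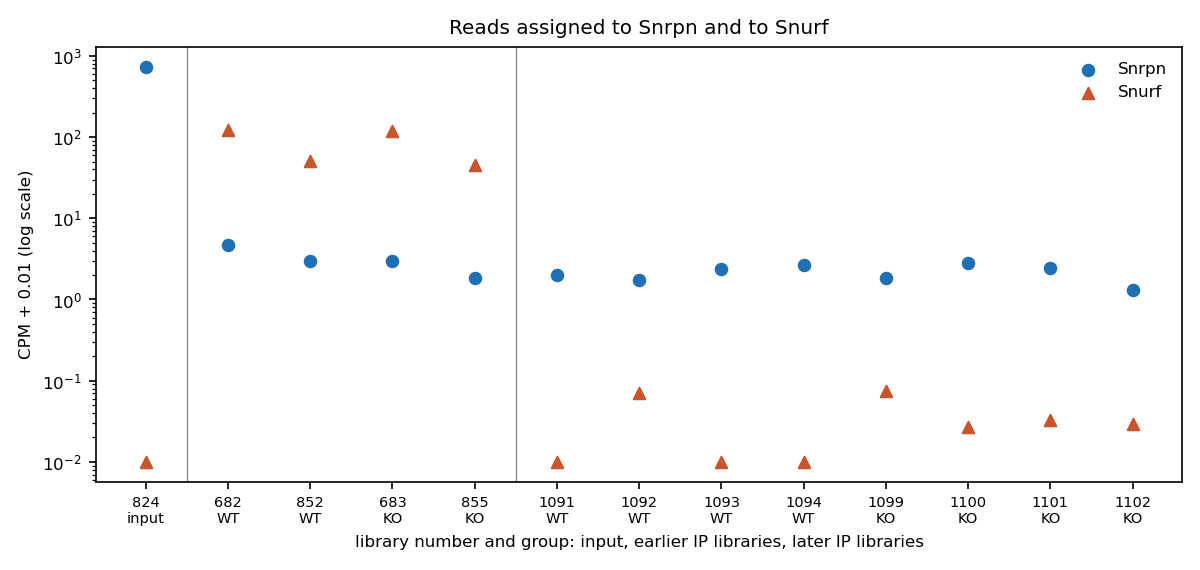
CPM + 0.01 on a log axis of reads assigned to Snrpn (circles) and Snurf (triangles) in each library, with vertical lines between the input, the earlier and the later IP libraries. Snurf exceeds Snrpn in all 4 earlier IP libraries and in no other library.

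Gnas gave the opposite picture, with the highest ratio of the same 11434 genes. This imprinted gene, which encodes the stimulatory G protein alpha subunit, had 20.9 CPM in the input and 2304 to 3229 CPM in wild-type IP, a log2 ratio of 6.92. It too is a locus of overlapping transcripts.

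Ndn and Magel2 encode MAGE proteins, regulators of ubiquitin ligases, and lie next to each other upstream of Snrpn. Ndn had 115 CPM in the input, 111 to 231 CPM in wild-type IP (median 173) and 103 to 220 CPM in knockout IP (median 148). The wild-type log2 ratio was 0.57 in the median and -0.06 to 1.00 in range, so the libraries lay from the level of the input to 2 times that. Ndn was alike within and apart between pairs of earlier libraries with neighbouring numbers: libraries 682 and 683 had 231 and 220 CPM, and libraries 852 and 855 had 111 and 103 CPM. Magel2 was low throughout, with 4.63 CPM in the input, 0.613 to 2.99 CPM in wild-type IP and 1.35 to 3.69 CPM in knockout IP, and was the 1 gene of the 10 below the minimum of 5 CPM. It had 29 reads in the IP library with the fewest and 204 in the input. None of the 10 listed MAGE genes and partners with 5 CPM was higher or lower in every wild-type IP library, and their median ratio was 0.28.

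Ube3a, the ubiquitin ligase lost in Angelman syndrome, had 134 CPM in the input. Wild-type IP libraries had a lowest value of 29.6, a median of 55.1 and a highest of 133 CPM, and knockout libraries 22.7, 59.7 and 164 CPM. Knockout library 1099 was above the input, wild-type library 1091 was level with it, and the other 10 were below. The 4 earlier IP libraries (22.7 to 43.0 CPM) lay below all 8 later ones (51.8 to 164 CPM). Over the 14065 genes compared in this way, 5.58% had all earlier libraries below all later ones and 8.52% all above. Earlier and later libraries also differ in gene list, so the lists and the samples cannot be told apart here. Snhg14, the antisense transcript, had 187 CPM in the input and 4.06 to 24.1 CPM in wild-type IP. It shares 1803 exon bases with Ube3a, 8.74% of the Ube3a exons. The counting mode, with or without strand, is not known here, so reads of both cannot be told apart. The IP lists also hold C230091D08Rik, a RefSeq synonym of Snhg14, and Ipw, which the input list does not have, so the ratio of Snhg14 (-4.07) has the same limit as that of Snrpn. Of the neighbours, Gabra5 (-2.62) and Gabrg3 (-4.01), genes of GABA-A receptor subunits, were lower in every wild-type IP library. With Snrpn and Snhg14 that is 4 of 14 genes of the domain with 5 CPM, beside 11.1% of all 11434 genes. Of 10 ubiquitin ligase and related genes, Ube3a included, none was higher or lower in every library.

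Meg3 and Rian lie in the same direction on chromosome 12, 32213 bases apart in GENCODE, and share no exon base. Meg3 had 3544 CPM in the input, the highest input level of the 10. In wild-type IP the lowest, median and highest values were 126, 225 and 785 CPM, and in knockout 178, 261 and 1064 CPM. Every IP library was below the input, with a wild-type log2 ratio of -3.97 (range -4.81 to -2.17). Rian had 496 CPM in the input, 23.1, 36.3 and 54.0 CPM as the lowest, median and highest wild-type value, and 31.5, 48.1 and 104 CPM in knockout. Its wild-type ratio was -3.74 (range -4.37 to -3.17), and again no IP library overlapped the input. Library 1099 was the highest of the 12 for both. Meg3 reads per Rian read were 7.15 in the input and 3.06 to 14.5 in IP, so the input value lay within the range of the IP libraries. Rows examined beside Rian, such as DQ267101 above, differed between the gene lists. How much of the Rian values comes from the lists was not tested.

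Other long noncoding RNAs were low in IP as well. Of 12 listed noncoding RNAs with 5 CPM, Meg3 and Rian included, 10 were lower in every wild-type IP library, beside 11.1% of all 11434 genes, with a median of -3.40 against -0.07. Neat1 (-4.78) and Malat1 (-4.55), RNAs of nuclear paraspeckles and speckles, had still lower ratios than Meg3, and Snhg11 (-4.08) a similar one. The other two were Kcnq1ot1 (-2.82), not lower by 2 times in every library, and Peg13. Peg13, an imprinted noncoding RNA named after its values were seen, had 350 CPM in the input and 443 to 567.6 CPM in wild-type IP (ratio 0.54, range 0.34 to 0.70). Within the Dlk1-Dio3 domain, Mirg (-2.29) and Rtl1 (-2.10) were lower in every wild-type IP library, Dlk1 (-2.50) and Begain (-1.50) were not, and Ppp2r5c, beside the domain, was at 0.00.

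**Figure D3:**
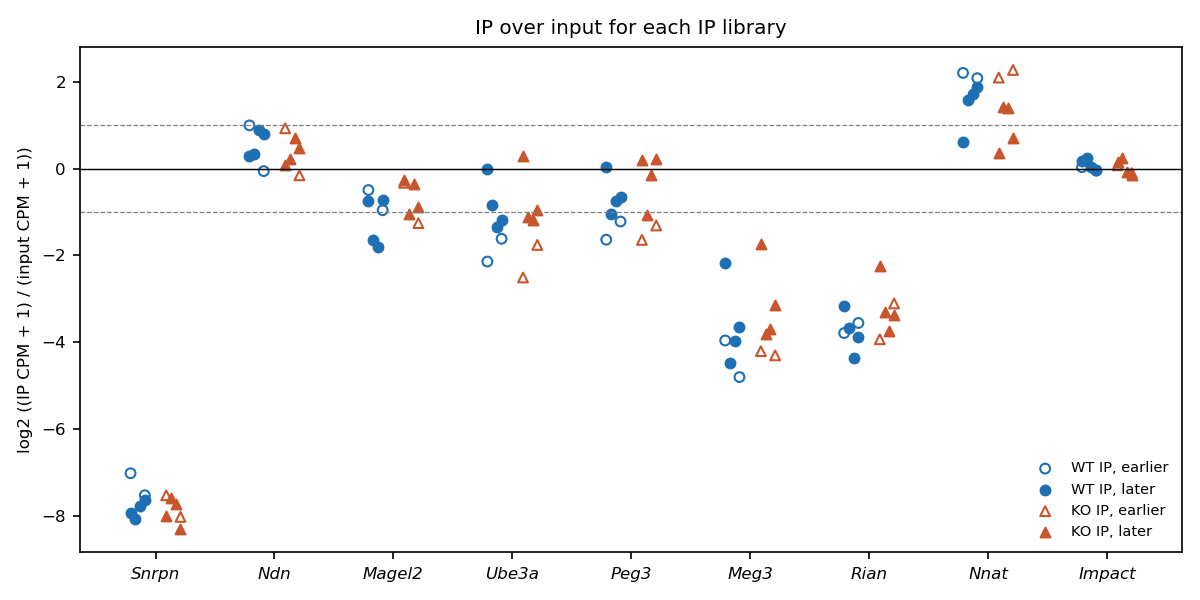
Log2 of IP CPM + 1 over input CPM + 1 for 9 genes, 1 point per IP library (open symbols earlier, filled later, circles WT, triangles KO); Snurf is left out because the input had 0 counts. The dashed lines are 2 times above and below the input. Snrpn, Meg3 and Rian lie below the lower line in every library, and Impact lies at the input level throughout.

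Peg3, a zinc finger protein of the paternally expressed domain on proximal chromosome 7, had 1194 CPM in the input. Wild-type IP libraries had a lowest value of 382, a median of 642 and a highest of 1229 CPM, and knockout libraries 381, 820 and 1396 CPM. The 3 highest, 1102, 1099 and 1091, were above the input and the other 9 below. The earlier libraries (381 to 512 CPM) lay below all the later ones (564 to 1396 CPM), as for 5.58% of 14065 genes. Here too gene lists and samples cannot be told apart. Usp29, the head-to-head neighbour 146 bases away, had 219 CPM in the input and 142 to 247 CPM in wild-type IP (ratio -0.21). Peg3 reads per Usp29 read were 5.45 in the input and 2.56 to 6.07 in the IP libraries. Zim1, a further zinc finger gene there, was lower in every wild-type IP library (-2.20), and Zfp773 (0.03) and Zfp772 (0.56) were not. That is 1 of 5 genes with 5 CPM, Peg3 included, beside 11.1% of all 11434 genes.

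Nnat, a small proteolipid of the endoplasmic reticulum, had the highest ratio of the 10 apart from Snurf in the earlier libraries. It had 343 CPM in the input. In wild-type IP the lowest, median and highest values were 522, 1201 and 1585 CPM, and in knockout 442, 911 and 1661 CPM. All 12 IP libraries exceeded the input. The wild-type ratio was 1.80 (range 0.60 to 2.20), and 1 library, 1091, kept it from passing 2 times in each of the 6. The 4 earlier libraries (1457 to 1661 CPM) lay above all 8 later ones (442 to 1265 CPM), as for 8.52% of 14065 genes. Again gene lists and samples cannot be told apart. Nnat lies inside an intron of Blcap on the other strand, with no shared exon base. Blcap had 107 CPM in the input and 98.1 to 209 CPM in wild-type IP (ratio 0.72). Nnat reads per Blcap read were 3.21 in the input and 4.499 to 10.1 in IP, so the input lay below every IP library.

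Impact, which counters activation of the eIF2 alpha kinase GCN2, varied least. It had 798 CPM in the input, 773 to 947 CPM in wild-type IP (median 817) and 714 to 937 CPM in knockout IP (median 799). The input lay within both groups, with a wild-type ratio of 0.03 (range -0.05 to 0.25). None of 10 listed genes of the integrated stress response was higher or lower in every wild-type IP library, and Eif2ak4, which encodes GCN2, had a ratio of -0.84. Of the genes near Impact, Osbpl1a (-2.90) and Cabyr (-2.21) were lower in every wild-type IP library, and Zfp521 (-0.66) was not. That is 2 of 4 genes with 5 CPM, Impact included, beside 11.1% of all 11434 genes.

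Of the 10 genes, 9 reached 5 CPM in the input or on average over wild-type IP. Of these, 3 (Snrpn, Meg3 and Rian) were lower in every wild-type IP library by at least 2 times and 0 were higher, beside 11.1% lower and 4.71% higher of the 11434 genes. The same 3 met the rule in the 6 knockout libraries, where 7.11% of genes were lower and 3.41% higher. These counts are a description, since the genes were chosen with this contrast in view. In the 2 earlier wild-type libraries alone, 5 of the genes were lower, Ube3a and Peg3 being added, and 2, Snurf and Nnat, were higher. Of all genes, 17.9% were lower and 8.82% higher. Snurf had 0 counts in the input and met the minimum of 5 CPM only through the earlier IP libraries. Its entry as higher is therefore no result about the gene, and reads at this locus depend on the gene list as described above. In the 4 later ones alone, 3 were lower and 0 higher, beside 12.5% and 5.43%. Scaling with TMM moved the median ratio of all genes from -0.07 to 0.16, and by this scaling the same number of the 10 were lower. Among 70 other imprinted genes, 67 were listed in all libraries and 45 had 5 CPM. Of these 45, 8 were lower (among them Gatm at -3.77, Igf2 at -3.25 and Nap1l5 at -2.91) and 3 were higher (Gnas, the chloride channel gene Ano1 at 2.86 and Th at 1.70). The median of the 45 was -0.21. Allelic expression was not measured, so whether these genes are imprinted in this tissue is not shown.

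The order of 9 of the 10 genes differed between input and IP. Per kilobase of GENCODE exon, the input held 340 CPM of Snrpn, 196 of Meg3, 188 of Nnat, 156 of Impact, 89.6 of Peg3, 31.2 of Ndn, 27.2 of Rian, 6.51 of Ube3a and 0.999 of Magel2. The medians of the 8 later IP libraries per kilobase were 498 CPM for Nnat, 166 for Impact, 68.6 for Peg3, 41.3 for Ndn, 15.3 for Meg3, 3.14 for Ube3a, 2.32 for Rian, 1.00 for Snrpn and 0.472 for Magel2. Nnat and Impact did not overlap across these 8 libraries (242 to 692 against 139 to 185 CPM per kilobase), nor did Impact and Peg3 (42.3 to 105). Peg3 and Ndn overlapped (33.2 to 57.6), as did Ndn and Meg3 (8.77 to 58.8). Snurf is left out, since its 216 bases are all shared with Snrpn. The place of Snrpn has the limit given above, since the part of the gene lists in its gap was not tested. With Snrpn set aside, Meg3 still led in the input and lay below Nnat, Impact, Peg3 and Ndn in the later IP libraries.

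Across the later libraries, 3 of the 9 genes tested moved with a score of glial and vascular markers by Pearson correlation. The mean log2 CPM of 30 astrocyte, oligodendrocyte, microglia and endothelial markers was highest in libraries 1099 (3.87), 1102 (3.62) and 1091 (3.27) and lowest in 1092 (1.25). Over the 8 later libraries, Peg3 rose with the score (r = 0.94 by Pearson, with p = 0.000198 by exact permutation and 0.00179 after adjustment over 9 relations, and rho = 0.95 by Spearman, exact p = 0.00114). Without libraries 1099 and 1092, the farthest from the median score, r was 0.95. Meg3 did so too (r = 0.89, exact permutation p = 0.00221, adjusted p = 0.00993; rho = 0.93, exact p = 0.00223), with r = 0.75 without these libraries. Nnat went the other way (r = -0.84, exact permutation p = 0.0115, adjusted p = 0.0346; rho = -0.76, exact p = 0.0368, adjusted p = 0.110), with r = -0.84 without them. The 6 other genes tested did not pass the threshold. The share of all genes that would pass the same rule was not computed, so the count of 3 is not shown to be particular to these genes.

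Markers of these cells were present at different summed levels. The 8 astrocyte markers summed to 2149 CPM in the input, 154 to 977 in wild-type and 157 to 1767 CPM in knockout IP libraries, and the 8 oligodendrocyte markers to 2977, 148 to 737 and 205 to 1401 CPM. No marker on either list was at 0 in all libraries. Markers of other neurons differed among the same libraries. In 1099, 1102 and 1091, lateral habenula and thalamus markers summed to 1864, 1447 and 1285 CPM, against 468 to 775 CPM in the other 5 later libraries. GABAergic markers summed to 327, 267 and 156 CPM there, against 19.2 to 176 CPM. Medial habenula markers were lower there, at 5283, 6051 and 6954 CPM against 8115 to 10940 CPM. In a pulldown from pooled tissue, RNA from more cells of another type and more RNA per cell cannot be told apart. The part of any of these cells in the levels of Peg3, Meg3 and Nnat was not tested beyond these relations and the fit with the score below.

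**Figure D4:**
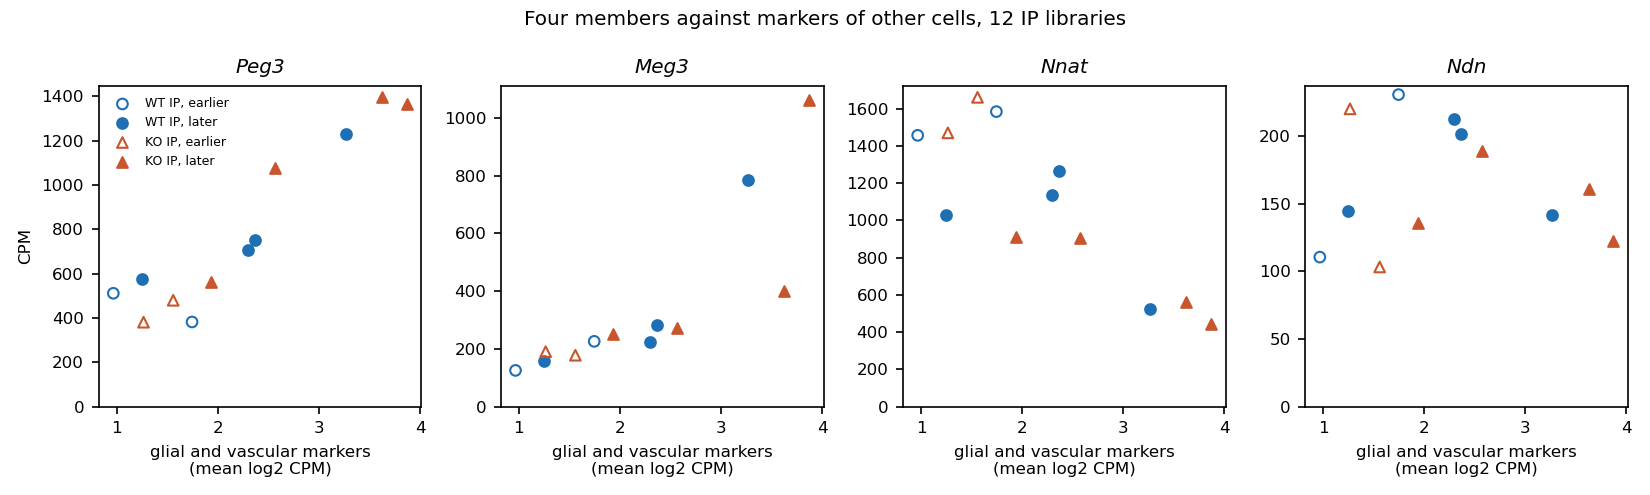
CPM of Peg3, Meg3, Nnat and Ndn (linear axes from 0) against the glial and vascular marker score, the mean log2 CPM of the marker genes, in 12 IP libraries (open symbols earlier, filled later, circles WT, triangles KO). In the 8 later libraries Peg3 and Meg3 are higher and Nnat lower where the score is higher, and the 3 libraries with the highest score hold the 3 highest Peg3 and Meg3 values.

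Knockout and wild type did not differ in any of the genes by the test used. Of the 10, 9 passed the filter on low counts, and Snurf did not. None was called by edgeR's quasi-likelihood test with Benjamini-Hochberg adjustment over 14317 genes, where 0.014% of genes were called, and each adjusted p was 0.999. At an unadjusted p under 0.05 there were 0 of 9, beside 438 of 14317 genes, and DESeq2 gave 0 called and 0 under 0.05, beside 0.0838% of genes called. No gene of the 10 had all knockout libraries on 1 side of all wild-type ones, as 0.135% of 14065 genes did. Across 21 other settings the smallest adjusted p of the 9 was 0.687.

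The precision differed between genes. Impact had a log2 fold change of -0.03 ± 0.11 (SE, 6 libraries a group, 95% interval -0.26 to 0.20) and Ndn of -0.14 ± 0.13 (-0.43 to 0.15), the narrowest intervals of the 9. The others were wider. Peg3 had 0.30 ± 0.25 (-0.25 to 0.85), Nnat -0.29 ± 0.22 (-0.78 to 0.19) and Snrpn -0.24 ± 0.24 (-0.77 to 0.29). Rian had 0.53 ± 0.29 (-0.11 to 1.17), Meg3 0.37 ± 0.45 (-0.61 to 1.35), Magel2 0.54 ± 0.40 (-0.34 to 1.42) and Ube3a 0.04 ± 0.32 (-0.65 to 0.73). The sum of Snrpn and Snurf CPM did not pass either (exact permutation p = 0.890, two-sided, where the smallest p possible is 0.00216). That permutation took no account of the library set. The sum was 46.7 to 128 CPM in earlier and 1.32 to 2.83 CPM in later IP libraries. A genotype difference smaller than this gap could hardly be seen by it, so no conclusion is drawn for the sum.

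Some of these estimates moved with the libraries rich in glial markers. Markers also leaned by genotype, though none was called. All 12 medial habenula markers had estimates below 0, and all 8 astrocyte and 8 oligodendrocyte markers had estimates above 0. So did 5 of 5 GABAergic markers, each with an unadjusted p under 0.05 by edgeR, and 6 of 6 lateral habenula and thalamus markers. Microglia markers were above 0 in 7 of 8 and endothelial ones in 4 of 5. With the score as a covariate, the log2 fold change of Peg3 was -0.00263 and that of Meg3 was -0.11, against 0.30 and 0.37 without it. That of Nnat was -0.093 in place of -0.29, and that of Rian 0.28 in place of 0.53. Without knockout library 1099, that of Meg3 was -0.12, that of Ube3a -0.33 and that of Rian 0.21. Without wild-type library 1091, Rian was at 0.68, the 1 estimate of the 9 genes with an unadjusted p under 0.05 in any setting. The genotype difference was not called as unequal between earlier and later libraries by edgeR (interaction term) for any of 14317 genes, where 325 had an unadjusted p under 0.05, and each adjusted p of the 9 genes was 1.

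**Figure D5:**
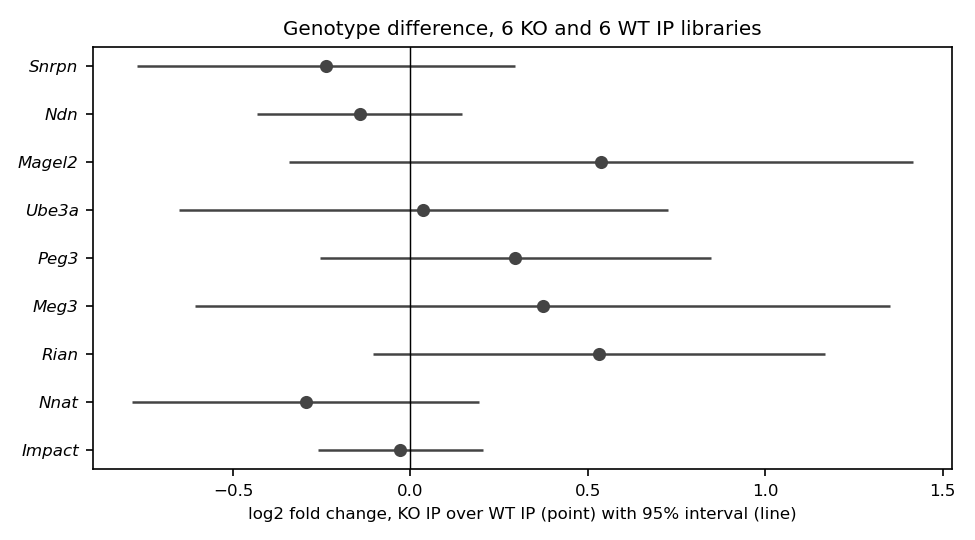
Log2 fold change of knockout over wild-type IP for the 9 genes tested (points) with 95% intervals (lines), edgeR, 6 libraries a group. Every interval includes 0, and those of Impact and Ndn are the narrowest.

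Other imprinted genes were tested in the same fit. None of 52 was called. An unadjusted p under 0.05 by edgeR was found for 5 of the 52, a larger share than the 438 of all 14317 genes, and this difference was not tested. The smallest p was that of Dlk1, a paternally expressed Notch ligand of the domain that holds Meg3, at 0.262, 2.13 and 10.8 CPM as the lowest, median and highest wild-type value and 3.197, 6.32 and 19.2 CPM in knockout (log2 fold change 1.38 ± 0.47, edgeR adjusted p = 0.999). The groups overlapped. Calcr, the calcitonin receptor, had 2.11 ± 0.74 at under 1 CPM in every library, and Peg10 had 0.70 ± 0.30. By likeness over the 12 IP libraries after removing the mean of each library set, the genes most like Snrpn among 14316 were Cdc45 (Pearson r = 0.93), Rab34 (0.92) and Arhgef33 (0.89). These are descriptions over libraries in which Snrpn had at most 168 reads.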

How the data were processed

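RNA of 6 wild-type IP, 6 knockout IP and 1 wild-type input library was measured. The kit named in the labels' protocols, Ovation V2, amplifies RNA to cDNA, which was cut to 250 bp. The deposited values are raw read counts per gene symbol. The authors' tools, per the submitters' processing notes, include STAR 2.3.0e and HTSeq, with the mm10 build; gene annotation, strand setting and overlap mode are not stated. File names of the tables mention saline and, for the input, saccharin, which the labels do not. Whether the input and the IP libraries differed in treatment is therefore not known. Every ratio of IP over input carries this limit. Groups follow the labels.

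Summary lines (no feature, ambiguous and the like) entered no total. CPM used totals over the 22682 symbols shared by all 13 libraries, which leaves out the rRNA precursor Rn45s (2.25% to 12.6% of IP gene counts, not listed for the input). With 1 input library, a gene was called lower or higher in IP when each of 6 libraries was at least 2 times away after adding 1 CPM. Genotype was tested with edgeR 4.0.16 (R 4.3.3): filterByExpr by genotype (minimum count 10, minimum total 15), TMM, robust quasi-likelihood test with library set (682 and 683, 852 and 855, the later 8, inferred from library numbers and gene lists and not stated by the labels) as a term, and Benjamini-Hochberg adjustment at 0.05. Standard errors came from the fold change and F. The script was tested on simulated counts. Of 100 genes changed by a log2 fold change of 1 in size, 52% were called, and of 100 changed by 2, 84%. There were 10 false calls in 14175 genes run, so a gene not called can still differ. DESeq2 1.42.0 was an alternative. Marker scores are means of log2 CPM with a prior count of 2. Replicates were numbered in accession order and pair no libraries.

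Genes and lists were chosen with earlier results of these data known. Genes named outside the 10 are, per list, up to 5 with the largest ratio in each direction among those called and 3 with the smallest genotype p, the neighbours with 5 CPM, Blcap, Snhg14, Snrpb, Gpr151, and the 3 most correlated with Snrpn; Kcnq1ot1 and Peg13 were added. Not every neighbour is reported here. Positions are from GENCODE M21 and RefSeq (GRCm38). Amplified reads are not independent molecules, so floors cover counting error only.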

Additional observations from a re-analysis of the deposited data

Results flagged for a closer look

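In 4 of the 20 groups of 6 libraries examined, 1 library stood apart from the rest by Dixon's criterion (gap over range above 0.625 for 6 values), which chance alone does in about 1 group in 20. Meg3 had 784.84 CPM in wild-type library 1091, where the group's median was 225 (gap over range 0.762), and 1064.06 CPM in knockout library 1099, where the median was 261 (0.750). Rian had 103.994 CPM in knockout library 1099 against a median of 48.1 (0.654). Ube3a had 163.837 CPM in the same library against a median of 59.7 (0.676). Libraries 1099 and 1091 had the highest and the third highest glial and vascular marker score, 3.87 and 3.27; the part of those cells was not tested beyond the relations with that score and the fits that include it.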

How the results depend on the processing

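The count of genes called by genotype was 2. It was 12 with DESeq2, 1 with a filter of 1 CPM in 6 libraries, 0 with later libraries alone and 1 without the 3 libraries of highest marker score, a choice made after seeing the data. Leaving out 1 library at a time gave 0 to 2, with 0 without knockout library 683. None of the 10 genes was called under any of 21 alternatives. Of the 10 genes, 0 were higher in wild-type IP, and 1 (Nnat) was at 1.5 times in place of 2. In the earlier libraries alone 2 were higher, Nnat and Snurf, of which Snurf met the minimum CPM only through those libraries. Leaving out 1 library gave 0 to 1 (Nnat, without library 1091). The number lower was 3, and 5 in the earlier libraries alone. Genotype estimates that changed sign, none of them called, were those with earlier libraries alone of Magel2 (-0.13), Ube3a (-0.27), Peg3 (-0.059) and Nnat (0.030), those with the marker score as covariate of Ube3a (-0.26), Peg3 (-0.00263) and Meg3 (-0.11), and that of Ube3a without the 3 libraries (-0.14). Leaving out 1 library moved Ube3a from -0.33 to 0.27, Meg3 from -0.12 to 0.83 and Impact from -0.074 to 0.0067; the cause was not tested. With Snrpn and Snurf summed, the ratio of IP to input was -7.72 in the median but -2.51 in the highest library. No paired analysis was possible because the labels give no replicate numbers; the library set, already a term in the tests, held 1 library of each genotype in 2 of its 3 levels. Counts limit Magel2 and Snrpn most, at 29 to 171 and 51 to 168 reads per IP library.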
